A study of Mus musculus with 14 samples.

Results

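Transcripts of marrow lymphoid cells that lack Pax5 were compared with those of Ly6D+ common lymphoid progenitors (CLP), the lymphoid stage at which B lineage specification begins. The comparison used 5 of the 14 arrays of the series, chosen by their titles: 3 arrays of Pax5KO engrafted cells and 2 of Ly6D+ CLP. The Pax5KO donors were embryos of day 15 that carried a reporter for λ5, part of the surrogate light chain. Their fetal liver cells were put into irradiated mice, and marrow cells positive for B220 and the reporter were sorted after 4 weeks. The 3 arrays of WT engrafted cells were made the same way from wild type donors with the same reporter and serve as the reference. The Ly6D+ CLP came from mice that received no transplant and carry no stated genetic change. All mice were C57Bl6, given as 8 to 12 weeks old. Which part of Pax5 is deleted, the sort gates of the CLP and whether animals were pooled are not given in the sources used here. Genotype, fetal liver origin, transplantation and the sort therefore differ together between Pax5KO engrafted cells and Ly6D+ CLP and cannot be told apart there. WT and Pax5KO engrafted cells share all of these but the donor genotype. Sex, as read from Xist, also differed on 2 of the 3 WT arrays. Cell stage may differ as well. Over all genes, WT arrays correlated with the PreB arrays of the series at 0.941 to 0.9599, and Pax5KO arrays at 0.9055 to 0.916. With the ProB arrays the ranges were 0.9439 to 0.9617 and 0.9504 to 0.9641. Genotype and stage cannot be told apart between the engrafted groups, and the part of stage was not tested.

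B lymphocytes arise from CLP in steps. E2A and EBF1 switch on early B lineage genes such as those of the surrogate light chain, which pairs with the heavy chain in the pre-B receptor. Pax5 acts after them: it activates genes of the B cell surface and signalling apparatus and represses genes of other lineages, and progenitors without it remain arrested before B cell commitment.

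Values are log2 signals, 1 per gene and array, and differences are Pax5KO engrafted minus Ly6D+ CLP unless stated. The lowest signal that the table holds was 2.32, and a group with all its arrays within 0.5 of it is said to be at the floor. A difference from such a group is a lower bound. A gene was called when its limma p-value, adjusted by Benjamini-Hochberg over 18193 genes, was under 0.05. The same cells also differed in sex. Xist, the RNA of the inactive X chromosome, read 12.66, 12.91 and 13.16 in Pax5KO engrafted cells and 2.33 on both Ly6D+ CLP arrays. Eif2s3y, a Y-linked gene, read 9.87 and 9.08 in Ly6D+ CLP and was at the floor in Pax5KO engrafted cells. The WT engrafted arrays were mixed, with Xist at 2.33, 2.58 and 12.68. The signal of 3' over 5' probe sets of beta-actin, which grows as RNA is shorter, was 3.16, 3.14 and 4.57 in log2 in Pax5KO engrafted cells and 3.56 and 5.57 in Ly6D+ CLP. The part of sex and of RNA length in the results was not tested. A fit with a term for high Xist was run and cannot decide it. Only the WT engrafted group held both high and low Xist, so its array 3 against arrays 1 and 2 set that term. The same array also had the highest 3' over 5' signal of Gapdh among the WT arrays, 5.44 against 2.61 and 3.02 in log2.

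Of 25 early B lineage genes, 2 were called between Pax5KO engrafted cells and Ly6D+ CLP, both higher, which is 8% beside 0.781% of all genes called higher. Igll1 and Vpreb1, of the surrogate light chain, were not among them. The promoters of a pair of surrogate light chain genes, of the B cell receptor component Cd79a and of Cd72, which moved most between the groups among genes activated by Pax5, are given here to place the results beside the sequence. Each gives the 250 bases before the start site, 5′ to 3′ on the gene's strand, from RefSeq for assembly GRCm38.p6. They lie at chr16:16863986-16864235 (minus strand) for Igll1, chr16:16869256-16869505 (minus) for Vpreb1, chr7:24897247-24897496 (plus) for Cd79a and chr4:43454627-43454876 (minus) for Cd72. Capitals mark CCCNNGGG, the core of the EBF1 motif, and CAGNTG, an E box read by E2A, on either strand. Cd72 was added after its values were seen.
Igll1: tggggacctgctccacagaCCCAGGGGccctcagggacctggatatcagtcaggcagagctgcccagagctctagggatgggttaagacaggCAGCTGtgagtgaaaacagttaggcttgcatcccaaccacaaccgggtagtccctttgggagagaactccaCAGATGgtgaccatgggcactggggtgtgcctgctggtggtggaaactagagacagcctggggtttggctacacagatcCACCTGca
Vpreb1: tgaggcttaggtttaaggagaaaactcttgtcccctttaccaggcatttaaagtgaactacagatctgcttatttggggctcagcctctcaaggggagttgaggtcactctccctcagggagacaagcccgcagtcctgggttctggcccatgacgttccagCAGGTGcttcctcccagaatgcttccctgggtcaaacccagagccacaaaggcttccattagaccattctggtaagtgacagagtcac
Cd79a: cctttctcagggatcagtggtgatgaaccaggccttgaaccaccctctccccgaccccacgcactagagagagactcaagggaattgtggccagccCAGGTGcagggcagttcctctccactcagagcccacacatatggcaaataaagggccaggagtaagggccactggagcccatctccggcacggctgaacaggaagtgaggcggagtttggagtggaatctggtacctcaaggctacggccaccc
Cd72: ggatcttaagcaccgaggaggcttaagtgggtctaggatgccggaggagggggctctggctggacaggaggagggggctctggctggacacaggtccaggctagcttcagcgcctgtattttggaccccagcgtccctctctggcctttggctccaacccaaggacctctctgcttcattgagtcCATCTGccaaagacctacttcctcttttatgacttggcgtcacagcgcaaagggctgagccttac
The E box was matched 3 times in the Igll1 promoter and 1 time in each of the others, and none of the matches overlapped the other motif. CCCNNGGG was matched 1 time, in Igll1. Among all 32851 promoters of this length, 44.8% held the E box letters and 11.8% held CCCNNGGG. A match is a description of the letters and does not show binding.

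Igll1, which encodes λ5, read 12.92, 12.59 and 13.12 in Pax5KO engrafted cells and 12.47 and 12.31 in Ly6D+ CLP. The groups did not overlap, but the difference of 0.49 did not pass the test (SE 0.40, 95% interval -0.42 to 1.39, limma adjusted p = 0.801). The Pax5KO engrafted cells were sorted for the λ5 reporter, so a high Igll1 level was selected for in them. In the 2 arrays of Ly6D- CLP, the stage before, Igll1 read far lower, at 4.61 and 4.02. Vpreb1, the partner of λ5, read 12.94, 13.003 and 13.21 against 12.71 and 12.47, a difference of 0.46 (95% interval -0.55 to 1.46, limma adjusted p = 0.897). Ebf1 read 10.90, 11.09 and 11.07 against 11.39 and 11.68, and the interleukin 7 receptor gene Il7r 12.44, 12.46 and 11.46 against 11.83 and 12.00. Neither was called. Ly6d itself, the marker that defines the CLP fraction, read 9.78, 9.93 and 9.39 against 11.25 and 10.30, which was not called (difference -1.07, limma adjusted p = 0.429). Ptprc, whose B220 form was used for the sort, was at 11.96, 12.10 and 10.68 against 11.70 and 12.34. These intervals reach beyond 1 log2 unit on at least one side for Igll1, Vpreb1, Ebf1, Ly6d and Il7r, so they do not show that the levels were equal.

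The targeted gene was read by 2 probe sets. The brighter one gave 7.95, 7.92 and 7.57 for Pax5 in Pax5KO engrafted cells, 6.17 and 3.41 in Ly6D+ CLP, and 6.76, 6.18 and 6.60 in WT engrafted cells. No loss of Pax5 signal was seen on this probe set. Its difference from Ly6D+ CLP, 3.02 (SE 0.67), missed the threshold (limma adjusted p = 0.0751). Neither of the 2 probe sets was called against Ly6D+ CLP, and the values of the other are not given here. Whether these probe sets lie inside the deleted part is not known, and the genotype is therefore left unchecked by them.

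Over all genes, 142 were called higher in Pax5KO engrafted cells than in Ly6D+ CLP, which is 0.781% of the genes tested, and 188 were called lower, or 1.03%, and together 1.81%. At an unadjusted p under 0.05 there were 2025 of the 18193, which is the background for the unadjusted counts of the gene lists. Of the called genes, 191 differed by at least 2 in log2 and 36 by at least 4. The median difference over all genes was 0.00. For 32 of the rises the Ly6D+ CLP arrays were at the floor, and for 69 of the falls the Pax5KO arrays were, so those differences are lower bounds. For 17 called genes both groups were at the floor, and no size is given for them. From the same Ly6D+ CLP arrays, WT engrafted cells had 627 genes called higher (3.45%) and 861 called lower (4.73%). Between the engrafted groups, 663 genes were higher (3.64%) and 417 lower (2.29%) in Pax5KO. The count of calls depended on single arrays and on the pooled spread. Without Ly6D+ CLP array 1 there were 380 rises and 867 falls, and without array 2 there were 221 and 600, where the lone CLP array is assumed to vary like the other groups. Without Pax5KO array 1 there were 88 and 120, and without array 2 there were 90 and 109. A fit of the 5 arrays alone gave 21 and 35, and a term for arrays with high Xist gave 96 and 299. Of the 88 called genes named by rule or added later, 75 lost their call in the fit of the 5 arrays alone and 39 with the Xist term, and none changed direction in either. Among the 12 largest rises and 12 largest falls, Jchain, Slc5a9, Pcdh11x, Pdgfrb, Ltbp3, Ctsw and H2-Ob were still called in the fit of the 5 arrays, and Jchain, Ang, Socs2, Fos and Sstr2 lost their call with the Xist term.

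**Figure D1:**
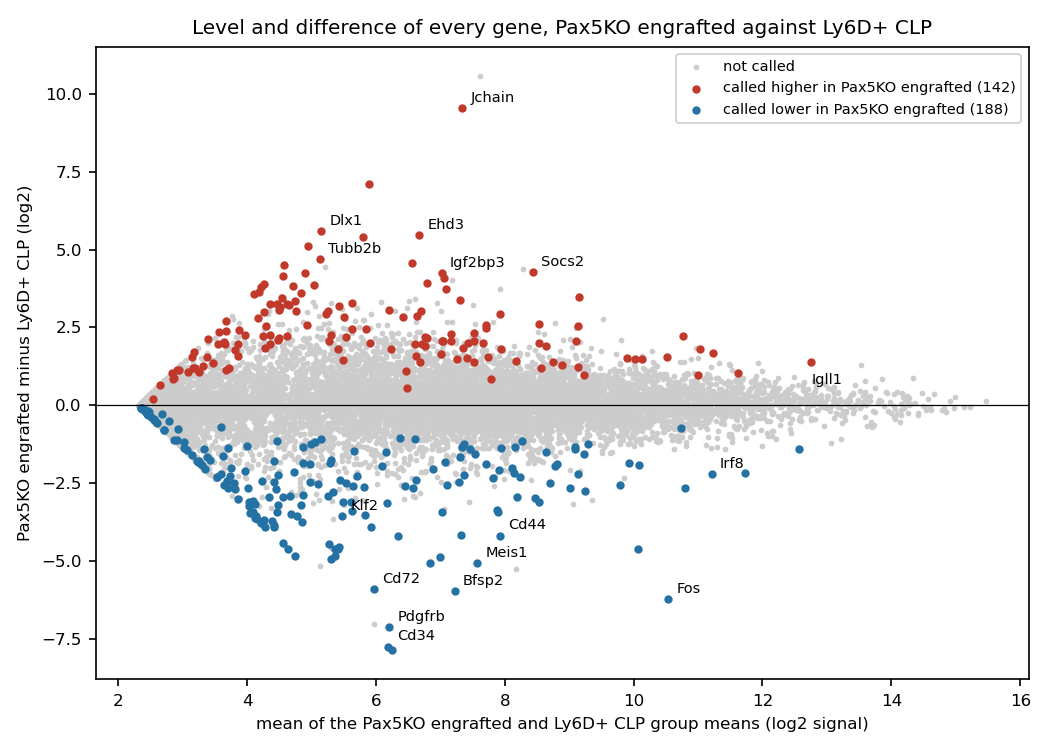
Difference between Pax5KO engrafted cells (3 arrays) and Ly6D+ CLP (2 arrays) in log2 for each of 18193 genes, against the mean of the 2 group means in log2 signal. The 142 rises are red and the 188 falls blue; Jchain has the largest called rise and Cd34 is labelled among the largest falls, while Igll1 lies near 0.

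Jchain, which encodes the joining chain of polymeric antibodies, had the largest called rise. It read 11.78, 11.99 and 12.54 in Pax5KO engrafted cells and was at the floor on both Ly6D+ CLP arrays, at 2.57. The rise was at least 9.53 (SE 1.61, limma adjusted p = 0.0233). On WT engrafted arrays it read 2.93, 6.27 and 6.41, so every Pax5KO array lay above every WT array (difference 6.90, limma adjusted p = 0.0253). ProB cells sorted without transplant read 12.00 and 12.22, within the range of the Pax5KO arrays. Without any 1 of the Pax5KO arrays, or without Ly6D+ CLP array 2, the call of Jchain ended, with a limma adjusted p of up to 0.0788.

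Several of the gained genes read high on the Pax5KO arrays and near the lowest value on the other 11 arrays of the series. Dlx1, a homeobox transcription factor best known from forebrain neurons, read 8.31, 8.30 and 7.22 in Pax5KO engrafted cells and at most 3.08 on the other 11 arrays. Its rise over Ly6D+ CLP was at least 5.59 (SE 0.34, limma adjusted p = 8.42e-05), and it was also higher than in WT engrafted cells, by 5.36 (limma adjusted p = 2.44e-05). The gene listed as ccdc198, a coiled-coil protein, read 8.23, 9.64 and 10.49, and at most 2.61 on the other arrays. It rose by at least 7.12 (SE 0.51, limma adjusted p = 0.000252). Slc5a9, a sodium-coupled sugar transporter, read 7.59, 7.38 and 7.55 against at most 2.67 elsewhere. Pcdh11x, a protocadherin of cell adhesion, read 6.67, 6.62 and 7.20 against at most 2.36. The rises were at least 5.11 (SE 0.09) and 4.50 (SE 0.14). For Slc5a9, 2 of 4 probe sets were called, and for Pcdh11x 2 of 2. Each of these 4 genes was called against both Ly6D+ CLP and WT engrafted cells. Cyyr1 and Sema6d, a semaphorin, followed the same pattern with Pax5KO values of 5.998 to 6.60 and 5.59 to 6.40 and at most 2.45 and 2.49 elsewhere. For Cyyr1, 1 of 2 probe sets was called, and for Sema6d 1 of 4. Both genes were chosen after their values were seen.

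Ehd3, which acts in endosome recycling, read 8.96, 9.20 and 10.02 in Pax5KO engrafted cells against 4.78 and 3.10 in Ly6D+ CLP, a rise of 5.45 (SE 0.52, limma adjusted p = 0.00137). The WT range was 3.74 to 4.61. Ang, the ribonuclease angiogenin, rose by 5.40 (SE 0.83, limma adjusted p = 0.0152), from 3.85 and 2.36 to 8.50, 7.83 and 9.20. Its call ended without Pax5KO array 1 or Ly6D+ CLP array 2, with an adjusted p of up to 0.055. Cracdl, related to a regulator of capping proteins of actin, rose by 4.56 (SE 0.65, limma adjusted p = 0.0103). Igf2bp3, an RNA-binding protein of fetal blood cells, read 9.18, 9.57 and 8.67 against 4.73 and 5.07, a rise of 4.24 (SE 0.38, limma adjusted p = 0.000944), and 4 of its 6 probe sets were called. WT engrafted cells, which share the fetal liver origin, read 6.71, 6.17 and 6.498. That is above Ly6D+ CLP by 1.56 (limma adjusted p = 0.0391) and below Pax5KO engrafted cells by 2.68 (limma adjusted p = 0.00206). ProB cells sorted without transplant read 6.14 and 6.62 and PreB cells 6.72 and 6.67, so both overlapped the WT range. The part of fetal origin was not tested. The other 9 of the 10 measured genes on the fetal lymphoid list were at the floor in Pax5KO engrafted cells, Lin28b and Igf2bp1 among them. Hmga2, a chromatin protein on the same list, was at the floor there and read 4.66 and 6.61 in Ly6D+ CLP, a fall of at least 3.08 (SE 0.47, limma adjusted p = 0.0147). The call of Hmga2 ended without Pax5KO array 1 or array 2, with an adjusted p of up to 0.0554.

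A pair of the largest gains was larger still in WT engrafted cells. Tubb2b, a beta-tubulin, read 7.83, 7.55 and 7.05 in Pax5KO engrafted cells, 2.41 and 3.14 in Ly6D+ CLP, and 10.04, 9.74 and 9.09 in WT engrafted cells. It rose by 4.70 (SE 0.34) over Ly6D+ CLP in Pax5KO engrafted cells and by 6.85 in WT engrafted cells. The engrafted groups differed by 2.14 with a limma adjusted p of 0.00379. Tnfrsf19, a receptor of the TNF family, rose by 4.24 (SE 0.46), to 6.69, 7.94 and 6.42, and read 8.75 to 9.41 in WT engrafted cells. For Tnfrsf19, 1 of 3 probe sets was called.

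**Figure D2:**
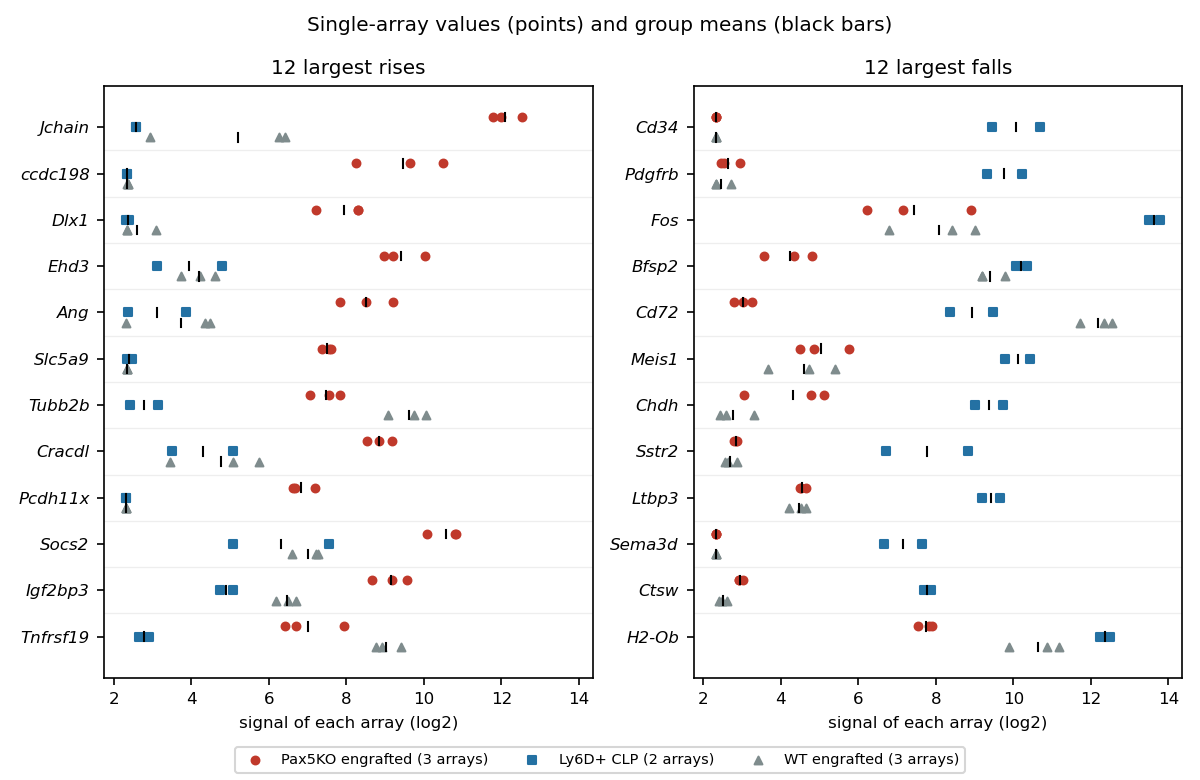
Log2 signal of every array for the 12 largest called rises (left) and 12 largest called falls (right) in Pax5KO engrafted cells (circles, 3 arrays), Ly6D+ CLP (squares, 2 arrays) and WT engrafted cells (triangles, 3 arrays), with group means as black bars. Jchain, ccdc198 and Dlx1 stand above both other groups in Pax5KO engrafted cells, and Cd34 is at the floor in both engrafted groups.

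Some rises were shared by engrafted cells of both genotypes. The genes called in Pax5KO engrafted cells with a 95% interval of the Pax5KO minus WT difference inside 1 log2 unit on either side were led by Rsph9, a protein of cilia. It read 8.57, 8.997 and 8.69 against 4.43 and 5.22, a rise of 3.93 (SE 0.31, limma adjusted p = 0.000476), with WT engrafted cells at 8.41, 8.03 and 8.82. Snapc3, a subunit of the small nuclear RNA activating complex, rose by 3.46 (SE 0.28) and Cdk5r1, an activator of the kinase Cdk5, by 2.17 (SE 0.21). The others were Car13, Pggt1b, Zfp41, Mrtfa and Babam2, with rises of 2.53, 2.31, 2.25, 2.20 and 2.07. Of the 4 probe sets of Snapc3, 1 was called, and with the mean over its probe sets the difference was 0.92 (limma adjusted p = 0.425). The same setting gave 1.04 for Car13 (limma adjusted p = 0.302) and 0.42 for Babam2 (limma adjusted p = 0.518). The call of Mrtfa ended without Pax5KO array 1 or 2 or Ly6D+ CLP array 2, with an adjusted p of up to 0.113. That of Pggt1b ended without Pax5KO array 2, at 0.053.

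Stem and progenitor genes were among the losses. Of 29 measured genes of the stem and multipotent progenitor list, limma called 6 lower and none higher, and the median difference was -0.64. That is 20.7% called lower, beside 1.03% of all genes. At an unadjusted p under 0.05, 11 were lower and 1 higher. In WT engrafted cells 15 of the 29 fell and none rose, beside 4.73% of all genes called lower there. Cd34, a sialomucin of stem and progenitor cells, read 9.45 and 10.69 in Ly6D+ CLP and 2.32 on every array of both engrafted groups, a fall of at least 7.75 (SE 0.28, limma adjusted p = 3.73e-06). Meis1, a homeobox partner of Hox proteins, read 5.75, 4.86 and 4.49 against 10.42 and 9.80, which is a fall of 5.07 (SE 0.57, limma adjusted p = 0.00292). For Meis1, 1 of 3 probe sets was called, and the WT arrays lay at 3.67 to 5.41. Hoxa9 read 7.61, 5.16 and 3.88 against 10.55 and 11.07, and the difference of -5.27 missed the threshold (limma adjusted p = 0.0605). The other members called were Flt3, Mycn, Cd27 and Gfi1.

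Flt3 and Cd27 dropped in part. Flt3, the receptor kinase that marks CLP and is described as repressed by Pax5, read 9.67, 9.98 and 8.74 in Pax5KO engrafted cells against 11.91 and 12.33 in Ly6D+ CLP. That is a fall of 2.66 (SE 0.37, limma adjusted p = 0.00917). In WT engrafted cells it read 3.66, 3.63 and 3.39, so the Pax5KO level lay between those of the other groups and above WT by 5.90 (limma adjusted p = 2.23e-05). Cd27, a receptor of the TNF family, read 6.93, 6.93 and 6.10 against 8.72 and 9.28 in Ly6D+ CLP and 2.73, 2.32 and 2.95 in WT engrafted cells; the fall from Ly6D+ CLP was 2.34 (SE 0.31, limma adjusted p = 0.00728). Kit, the stem cell factor receptor, read 7.0004, 7.13 and 4.61 against 6.78 and 7.06, and Egfl7 10.47, 10.29 and 9.82 against 10.13 and 10.38. Neither was called against Ly6D+ CLP, and both were higher than in WT engrafted cells, by 3.04 and 4.68 (limma adjusted p = 0.0279 and 0.000122).

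Falls shared with WT engrafted cells included surface and secreted proteins. Pdgfrb, a growth factor receptor best known from pericytes and other stroma, read 9.31 and 10.22 in Ly6D+ CLP and 2.53, 2.95 and 2.44 in Pax5KO engrafted cells, a fall of 7.13 (SE 0.41, limma adjusted p = 6.06e-05). It was at the floor in WT engrafted cells, and 1 of its 2 probe sets was called. Ltbp3, which binds latent TGF-beta, fell by 4.88 (SE 0.43), and Sema3d, a secreted semaphorin, by at least 4.83 (SE 0.24). For Ltbp3, 2 of 4 probe sets were called, and for Sema3d 1 of 2. St8sia1, the GD3 synthase, and Nav1 fell by at least 4.62 and 3.91, and Adgrl4, an adhesion receptor, by 4.54. Ccl3, a chemokine, fell from 7.21 and 6.33 to the floor, and Mst1r, a receptor kinase, from 6.18 and 6.56. Sstr2, a somatostatin receptor, fell by 4.93 (SE 0.55) and Ctsw, a protease of NK and cytotoxic T cells, by 4.83 (SE 0.44). Of the 16 measured genes of the stromal and endothelial list, Pdgfrb was called lower, or 6.25% beside 1.03% of all genes. In Ly6D+ CLP 12 of the 16 were at the floor, Cdh5, Pdgfra, Lepr and Cxcl12 among them. Beside Pdgfrb, Pecam1 read 4.99 and 4.81 there, and Nes and Col1a1 were also above the floor. The mean level of the list was 2.997 and 3.09 there against 2.42 to 2.56 in Pax5KO engrafted cells. The part of other cell types in the Pdgfrb values was not tested.

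Fos, an immediate early transcription factor, read 13.50 and 13.78 in Ly6D+ CLP and 6.21, 7.15 and 8.91 in Pax5KO engrafted cells, a fall of 6.21 (SE 0.81, limma adjusted p = 0.00671). WT engrafted cells read 8.41, 9.01 and 6.80 and overlapped the Pax5KO arrays. Junb fell by 3.09 (SE 0.25, limma adjusted p = 0.000539). These were the 2 called members of 22 measured genes of the immediate early and stress list, or 9.09% beside 1.03% of all genes called lower. The median difference of the list was -0.65. Egr1, Dusp1 and Zfp36 differed by -3.05, -2.37 and -3.16 and did not pass (limma adjusted p between 0.0528 and 0.11). Hspa1b, a heat shock protein of the same list, went the other way, with 6.996, 6.28 and 9.005 in Pax5KO engrafted cells against 2.91 and 3.08, and also missed the threshold (difference 4.43, limma adjusted p = 0.0607). At an unadjusted p under 0.05, 1 member was higher and 8 were lower. Such genes respond to handling and sorting of cells, and the part of it was not tested.

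Some genes fell below the Ly6D+ CLP level in Pax5KO engrafted cells and were also lower there than in WT engrafted cells. Cd72, an inhibitory co-receptor of B cells that is described as activated by Pax5, was the clearest. Its Ly6D+ CLP arrays read 9.49 and 8.36, and it read 2.78, 3.02 and 3.26 in Pax5KO engrafted cells and 12.33, 12.54 and 11.71 in WT engrafted cells. It fell by 5.90 in Pax5KO engrafted cells (SE 0.39, limma adjusted p = 0.000138) and rose by 3.27 in WT engrafted cells (limma adjusted p = 0.00129). The engrafted groups differed by 9.17 with a limma adjusted p of 1.92e-06. On the other 11 arrays Cd72 was never under 8.36. Bfsp2, a lens filament protein, read 3.57, 4.35 and 4.80 against 10.36 and 10.06, a fall of 5.97 (SE 0.37, limma adjusted p = 8.42e-05). WT arrays, at 9.19, 9.18 and 9.79, were not called against Ly6D+ CLP (limma adjusted p = 0.28). Cd44, the hyaluronan receptor used in homing, read 6.01, 4.96 and 6.54 in Pax5KO engrafted cells, 10.19 and 9.85 in Ly6D+ CLP, and 9.62 to 10.46 in WT engrafted cells. The fall was 4.18 (SE 0.44, limma adjusted p = 0.00227), and 2 of its 4 probe sets were called. Klf2, a transcription factor of quiescent lymphocytes, read 3.38, 3.38 and 4.33 against 7.05 and 7.48, and 10.13 to 10.43 in WT engrafted cells. It fell by 3.57 (SE 0.43, limma adjusted p = 0.00427). ProB cells sorted without transplant read 5.10 and 5.15 for Klf2, also below Ly6D+ CLP, and PreB cells 9.88 and 10.57. Tmprss3, a protease, and Mgst1, a glutathione transferase, were at the floor in Pax5KO engrafted cells and fell by at least 3.85 and 3.76. The call of Mgst1 ended without Pax5KO array 1 or 2 (adjusted p up to 0.0516). Padi2, a peptidylarginine deiminase, fell by 3.52 in Pax5KO engrafted cells and by 1.51 in WT engrafted cells (limma adjusted p = 0.0298). Il18, a cytokine, fell by 2.90.

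The genes of MHC class II presentation described here were chosen in part after their values were seen. Of the 6, 2 were called, beside 1.81% of all genes. H2-Ob, part of the class II regulator H2-O, read 12.25 and 12.50 in Ly6D+ CLP and 7.81, 7.90 and 7.55 in Pax5KO engrafted cells, a fall of 4.62 (SE 0.34, limma adjusted p = 0.000283). WT engrafted cells read 10.86, 11.18 and 9.89, and PreB cells 11.11 and 11.06. ProB cells sorted without transplant read 8.17 and 7.72 for H2-Ob and overlapped the Pax5KO arrays, so the low level was not particular to them. H2-DMa, of the peptide exchange factor H2-M, fell by 2.64 (SE 0.36, limma adjusted p = 0.0088), and both of its probe sets were called. The WT arrays of H2-DMa, at 7.69 to 8.13, overlapped the Pax5KO arrays. The class II chains H2-Ab1, H2-Aa and H2-Eb1 differed by -2.46, -2.04 and -2.23 and were not called (limma adjusted p = 0.1, 0.597 and 0.343). Their Pax5KO arrays were spread, as H2-Aa read 4.03, 5.65 and 9.29. Cd74, the invariant chain, read 3.78, 4.27 and 6.51 against 5.14 and 5.10, with overlap.

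Among 28 genes on the list of those activated by Pax5, 1 rose and 3 fell between Ly6D+ CLP and Pax5KO engrafted cells (3.57% and 10.7%, beside 0.781% and 1.03% of all genes), and the median difference was -0.01. Between the same CLP and WT engrafted cells 20 rose and none fell, beside 3.45% and 4.73% of all genes, and the median was 3.24. Between the engrafted groups 21 were lower in Pax5KO and none higher, beside 2.29% and 3.64% of all genes. The list holds genes named for this dependence in the literature, so its direction between the genotypes is not independent evidence. Fcrla, an Fc receptor-like protein, read 2.61, 2.49 and 2.88 in Pax5KO engrafted cells, was at the floor in Ly6D+ CLP, and read 12.67, 12.25 and 11.88 in WT engrafted cells. Ikzf3, the transcription factor Aiolos, was at the floor in both and read 8.05 to 8.43 in WT engrafted cells. Cd79a, the signalling partner of the B cell receptor whose promoter is printed above, read 5.48, 5.40 and 5.36 against 6.13 and 4.47 and rose in WT engrafted cells by 3.21 (limma adjusted p = 0.00298). Blnk, an adaptor of the pre-B receptor that is also described as activated by Pax5, read 11.79, 11.86 and 10.89 against 11.73 and 11.26 and was as high in WT engrafted cells, at 10.93 to 12.06.

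Cd22, an inhibitory sialic acid receptor, was the member that rose, with 1 of its 2 probe sets called. It read 6.43, 5.21 and 7.09 against 2.998 on both Ly6D+ CLP arrays, a rise of 3.25 (SE 0.44, limma adjusted p = 0.00835), and 10.55 to 10.78 in WT engrafted cells. The members that fell were Cd72, Siglecg and Irf8. Siglecg, a further inhibitory sialic acid receptor, read 3.40, 3.76 and 4.36 against 6.19 and 6.53, a fall of 2.52 (SE 0.30, limma adjusted p = 0.00405), and 10.31 to 10.63 in WT engrafted cells. Irf8, a transcription factor of B cells and dendritic cells, read 10.003, 10.13 and 10.17 against 12.07 and 12.57. The fall of Irf8 was 2.21 (SE 0.20, limma adjusted p = 0.000944), and 1 of its 2 probe sets was called. It read 11.61 to 12.02 in WT engrafted cells and 12.12 and 11.80 in PreB cells. In ProB cells sorted without transplant Irf8 read 9.95 and 10.26, on either side of the Pax5KO arrays. Irf4, its relative, read 7.15, 7.56 and 6.80 against 5.94 and 2.95 and missed the threshold (difference 2.73, limma adjusted p = 0.143).

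**Figure D3:**
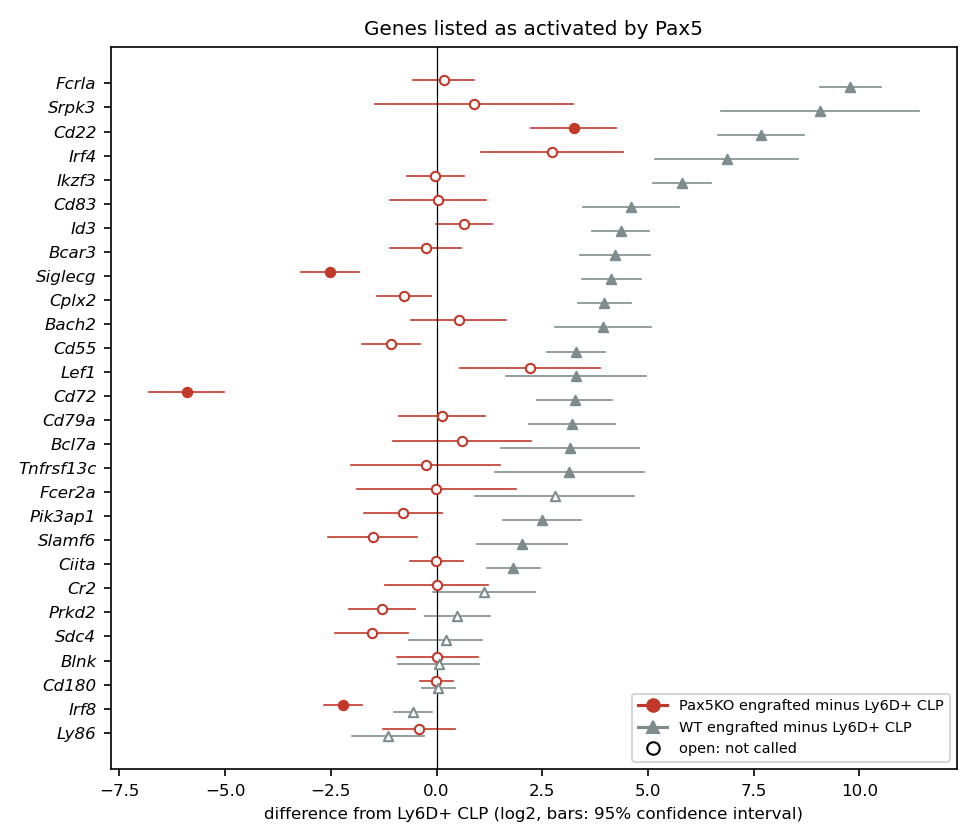
Difference from Ly6D+ CLP in log2, with 95% confidence intervals, for the 28 measured genes described as activated by Pax5, in Pax5KO engrafted cells (red circles) and WT engrafted cells (grey triangles); open symbols were not called. Both differences share the 2 Ly6D+ CLP arrays. Cd22 was called higher and Cd72, Siglecg and Irf8 lower in Pax5KO engrafted cells, and Fcrla has the largest WT difference.

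Of 21 measured genes described as repressed by Pax5, Jchain rose and Flt3 fell, which is 9.52% called beside 1.81% of all genes, and the median difference was -0.03. From Ly6D+ CLP to WT engrafted cells none rose and 10 fell, beside 3.45% and 4.73% of all genes, with a median of -2.13. Notch1, the receptor that starts T cell development, read 11.92, 11.69 and 11.59 in Pax5KO engrafted cells against 12.47 and 11.71, and 9.05 to 9.27 in WT engrafted cells. Lmo2, a transcription cofactor of progenitors, read 10.67, 10.68 and 10.30 against 10.10 and 10.38, and 7.44 to 8.02 in WT engrafted cells. Dntt, the polymerase that adds bases at immunoglobulin joints, read 13.35, 13.34 and 13.45 against 13.98 and 14.02, and 9.49 to 11.28 in WT engrafted cells. None of these 3 was called against Ly6D+ CLP, and each was higher than in WT engrafted cells (limma adjusted p between 7.92e-05 and 0.00625).

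Other genes were called between WT engrafted cells and Ly6D+ CLP and not between Pax5KO engrafted cells and Ly6D+ CLP. Ms4a1, which encodes CD20, Fcmr, the receptor for IgM, and Scd1, a fatty acid desaturase, were at or near the floor in Pax5KO engrafted cells and Ly6D+ CLP and rose in WT engrafted cells by at least 9.44, 8.46 and 8.10. The splicing factor kinase Srpk3, the deubiquitinase Otub2 and the light chain segments Igkv8-30 and Iglv1 rose there by at least 9.06, and by 7.72, 8.35 and 7.42, in that order. Light chain segments share sequence, so their probe sets can read more than 1 segment. In the other direction, Adgrg3, an adhesion receptor, read 11.80, 11.50 and 11.67 in Pax5KO engrafted cells, 12.61 and 12.91 in Ly6D+ CLP, and 3.12, 5.58 and 4.49 in WT engrafted cells. Myl10, a myosin light chain, read 10.20, 11.13 and 11.46, 9.23 and 9.46, and 2.69 to 3.81. Bex6, Afap1l1, Atp8b4, Dnajc6, Emb and Sh2d5 fell by 6.06 to 7.18 in WT engrafted cells, and their Pax5KO minus Ly6D+ CLP differences lay between -1.48 and 0.22.

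On the list for the start of the B lineage and its pre-B receptor, limma called 2 of the 25 measured genes higher and none lower. That is 8% called higher, beside 0.781% of all genes. At an unadjusted p under 0.05, 6 were higher and 1 lower. In WT engrafted cells 10 were called higher and 1 lower, beside 3.45% and 4.73% of all genes. Pou2af1, a coactivator of octamer-binding factors in B cells, read 12.11, 12.37 and 11.78 against 10.50 and 10.29, a rise of 1.69 (SE 0.22, limma adjusted p = 0.00639). Cd79b, of the B cell receptor, rose by 1.82 (SE 0.34, limma adjusted p = 0.036). The call of Cd79b ended without any 1 of the Pax5KO arrays or Ly6D+ CLP array 2, with an adjusted p of up to 0.118. Spib, a transcription factor of B cells, read 7.71, 7.58 and 8.37 against 6.85 and 5.51 and was not called (limma adjusted p = 0.0818), with WT engrafted cells at 12.59 to 13.10. Of 17 measured genes of V(D)J recombination and end joining, limma called none, beside 1.81% of all genes. At an unadjusted p under 0.05 there were 3. Lig4 had the largest difference at 2.17 (limma adjusted p = 0.422). Rag1 read 12.50, 12.35 and 10.38 against 12.55 and 12.58.

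Of 23 genes of pre-B cells, light chains and B cell maturation, Cd22 and Il2ra rose and H2-Ob and H2-DMa fell. That is 17.4% called, beside 1.81% of all genes. In WT engrafted cells there were 12 rises and 2 falls, beside 3.45% and 4.73% of all genes. Il2ra, the CD25 antigen of pre-B cells, read 5.42, 5.03 and 4.16 and was at the floor in Ly6D+ CLP, a rise of at least 2.40 (SE 0.45, limma adjusted p = 0.0356). Its call ended without Pax5KO array 1 or 2 or either Ly6D+ CLP array, with an adjusted p of up to 0.119. Bcl6, a repressor that acts at the pre-B and germinal centre stages, rose by 3.86 (SE 0.36, limma adjusted p = 0.00112), to 7.09, 6.81 and 7.01, with WT engrafted cells at 7.61 to 8.37. Bcl6 was chosen after its values were seen, and 1 of its 2 probe sets was called.

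**Figure D4:**
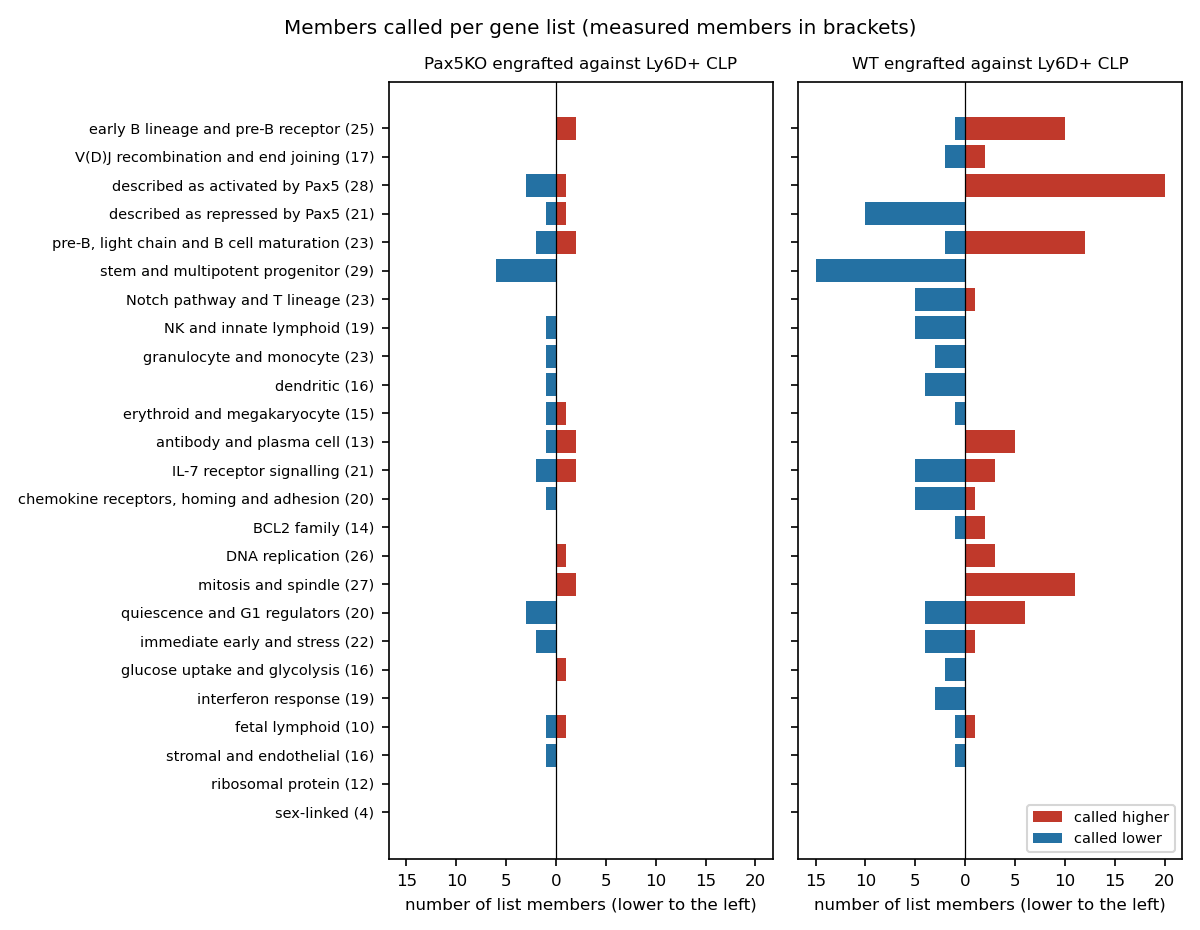
Number of measured members of each of 25 gene lists called higher (red, to the right) and lower (blue, to the left) against Ly6D+ CLP, for Pax5KO engrafted cells (left panel) and WT engrafted cells (right panel), with the number measured in brackets. The stem and multipotent progenitor list has 6 falls in Pax5KO and 15 in WT engrafted cells, and the list of genes activated by Pax5 has 1 and 20 rises.

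Over 5 lists of markers of other lineages, 5 of 95 genes were called, 1 higher and 4 lower, which is 5.26% beside 1.81% of all genes. Of 23 genes of the Notch pathway and T lineage limma called none (3 at an unadjusted p under 0.05), and Cd3e, Cd3g, Cd4 and Cd8a were at the floor in Pax5KO engrafted cells and in Ly6D+ CLP; the list's mean level was 4.46 to 4.55 and 4.73 to 4.76. Of 19 NK and innate lymphoid genes, Nkg7, a granule protein, fell by 3.41 (SE 0.63, limma adjusted p = 0.0356), and its call ended without any 1 of the Pax5KO arrays or Ly6D+ CLP array 1 (adjusted p up to 0.105). Ncr1, Eomes and Prf1 were at the floor in both groups, and the mean level of the NK list was 3.68 to 3.79 in Pax5KO engrafted cells and 4.01 to 4.12 in Ly6D+ CLP. Il18r1 and Il18rap, the receptor chains for interleukin 18, read 6.57 to 7.54 and 9.24 to 9.84 in Pax5KO engrafted cells, against 6.55 and 8.45, and 9.78 and 9.75, in Ly6D+ CLP. WT engrafted cells read 2.72 and 3.42 to 4.59.

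Of 23 granulocyte and monocyte genes, Cebpb fell by at least 2.67 (SE 0.29, limma adjusted p = 0.00272). Mpo, the myeloperoxidase of granulocyte precursors, read 10.70 and 11.04 in Ly6D+ CLP and 7.99, 7.51 and 7.99 in Pax5KO engrafted cells, which was not called (limma adjusted p = 0.366). Ctsg, cathepsin G of granulocyte precursors, had the largest difference on the list and went the other way, at 8.49, 8.50 and 8.78 in Pax5KO engrafted cells against 4.64 and 5.97. It was not called (difference 3.28, limma adjusted p = 0.136), and its Pax5KO arrays lay above the other 11 arrays, which reached 8.05. Cybb, of the phagocyte oxidase, differed by 2.59 (limma adjusted p = 0.23). At an unadjusted p under 0.05, 2 genes of the list were higher and 2 lower. Elane and Ngp were at the floor in both, and the mean level of this list was 3.81 to 4.21 in Pax5KO engrafted cells and 3.86 to 4.12 in Ly6D+ CLP. Of 16 dendritic genes, Irf8 fell, with Siglech and Xcr1 at the floor in both groups and mean levels of 4.28 to 4.64 and 4.72 to 4.86. Of 15 erythroid and megakaryocyte genes, Car2, a carbonic anhydrase also found outside red cells, rose by 3.47 (SE 0.55, limma adjusted p = 0.0177), and Gata1 fell from 3.82 and 4.25 to the floor. Klf1 and Hba-a1 were at the floor in both groups, and mean levels were 3.51 to 3.64 and 3.51 to 3.61. Without Pax5KO array 1 or 2 or Ly6D+ CLP array 2 the calls of Car2 and Gata1 ended, with adjusted p of up to 0.0675 and 0.0693; that of Gata1 also ended without Pax5KO array 3. In sorted bulk RNA, fewer cells of a type and less RNA per cell cannot be told apart.

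Of 13 antibody and plasma cell genes, Jchain and Mzb1, a chaperone of antibody assembly, rose, and Sdc1, which encodes CD138, fell. That is 23.1% called, beside 1.81% of all genes. Mzb1 read 11.62, 11.83 and 12.18 against 9.90 and 9.42 (difference 2.22, SE 0.40, limma adjusted p = 0.0303), and Sdc1 read 5.72, 5.96 and 6.93 against 10.11 and 9.02 (difference -3.36, SE 0.61, limma adjusted p = 0.0313). Prdm1, the regulator of plasma cells, was at the floor in both. The calls of Mzb1 and Sdc1 ended without Pax5KO array 1 or 2, that of Mzb1 also without array 3 or Ly6D+ CLP array 2, and that of Sdc1 also without Ly6D+ CLP array 1; the adjusted p reached 0.0995 and 0.109. Of the 4 probe sets of Sdc1, 1 was called, and with the mean over them the difference was -2.18 and was not called (limma adjusted p = 0.0851).

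Of 21 genes of interleukin 7 receptor signalling, Socs2 and Jak3 rose and Socs3 and Mycn fell. That is 19% called, beside 1.81% of all genes. Socs2, a feedback inhibitor of cytokine receptors, read 10.79, 10.84 and 10.07 against 5.06 and 7.54, a rise of 4.27 (SE 0.70, limma adjusted p = 0.0212), with 1 of 6 probe sets called. In WT engrafted cells it lay at 6.58 to 7.26. Jak3, the kinase of the common gamma chain, rose by 2.09 (SE 0.39, limma adjusted p = 0.0357). Socs3, a related inhibitor, fell by 4.19 (SE 0.60, limma adjusted p = 0.0104), from 7.88 and 9.001 to 4.37, 3.69 and 4.70. WT engrafted cells read 4.66, 3.28 and 3.65, so 1 of the 3 lay within the Pax5KO range and 2 below it. Without Pax5KO array 1 or 2 the calls of Socs2 and Jak3 ended, and that of Jak3 also without array 3 or Ly6D+ CLP array 2, at adjusted p of up to 0.0794 and 0.124. Of 14 BCL2 family genes limma called none (3 at an unadjusted p under 0.05); Bcl2 read 6.19, 5.51 and 4.48 against 9.26 and 8.17 and missed the threshold (limma adjusted p = 0.0619), though 3 of its 5 probe sets were called lower.

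Of 53 genes of DNA replication and mitosis, 3 rose and none fell, which is 5.66% beside 0.781% of all genes called higher. At an unadjusted p under 0.05, 18 were higher and 0 lower, 9 on each list. Of 26 genes of DNA replication, Cdc6, a licensing factor, rose by 1.22 (SE 0.23, limma adjusted p = 0.0369), and the median difference was 0.54. Of 27 genes of mitosis and spindle, the kinase Plk1 rose by 1.99 (SE 0.29, limma adjusted p = 0.0115) and the cyclin Ccnb2 by 1.498 (SE 0.30, limma adjusted p = 0.0499), with a median of 0.41. In WT engrafted cells 11 of the 27 rose, beside 3.45% of all genes, and the median was 1.09. Mki67, a marker of cycling cells, read 12.95, 13.22 and 12.07 against 12.39 and 12.89. Of 20 genes of quiescence and G1 control, Klf2, Cdkn1a and Gfi1 fell, or 15% beside 1.03% of all genes called lower. Cdkn1a, the inhibitor p21, read 7.72, 7.27 and 7.38 against 9.91 and 9.99, a fall of 2.49 (SE 0.19, limma adjusted p = 0.000424) beside a fall of 2.47 in WT engrafted cells. The calls of Cdc6 and Ccnb2 ended without any 1 of the Pax5KO arrays, and without Ly6D+ CLP array 1 for Cdc6 and array 2 for Ccnb2, at adjusted p of up to 0.12 and 0.158.

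Hk2, a hexokinase and the called member of 16 glucose uptake and glycolysis genes, rose by 1.90 (SE 0.34, limma adjusted p = 0.0286), from 5.82 and 5.81 to 8.17, 7.97 and 7.004; its call ended without Pax5KO array 1 or 2 or Ly6D+ CLP array 2 (adjusted p up to 0.102). Of 20 genes of chemokine receptors, homing and adhesion, Cd44 fell. The called gene was 6.25% of the glucose list and 5% of the homing list, beside 1.81% of all genes. None of 19 interferon response genes was called by limma (1 at an unadjusted p under 0.05), with Mx1 at the largest difference (-3.05, limma adjusted p = 0.189). None of 12 ribosomal protein genes was called (0 at an unadjusted p under 0.05). The 4 sex-linked genes were not called either (2 at an unadjusted p under 0.05). Their pooled spread took in the mixed WT engrafted arrays, where Xist had a standard deviation of 5.90. Xist and Eif2s3y did not overlap between Pax5KO engrafted cells and Ly6D+ CLP, so the lack of a call does not show equal sex.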

How the data were processed

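The authors deposited a single table of log2 signals for 45101 probe sets of an Affymetrix 3' array on 14 arrays. RMA, GCRMA and limma are named in the submitters' processing notes, and which one produced these values is not given in the sources used here. Values were taken as already normalized. Of the probe sets, 34945 had 1 gene symbol in the platform annotation, updated through RefSeq (GRCm38.p6; 34742 matched), 932 had several and 9160 no symbol here, and 64 were control probe sets. The probe set brightest on average across the series stood for each of 18193 genes. limma 3.58.1 in R 4.3.3 (lmFit, eBayes) fitted 1 mean for each of the 6 groups, with all 14 arrays and 8 residual degrees of freedom, and all tests were two-sided. The fit was tested on simulated data. No batch is given in the labels. The labels call the arrays biological replicates, and with 2 and 3 per group their number limits the precision.

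Named genes were the 12 largest called rises and falls, up to 4 per gene list with the largest difference, up to 8 each way for genes called against both other groups, for WT changes that Pax5KO cells lacked and for changes shared with WT, and a few fixed genes; others are said to be chosen after their values were seen or stand beside a list count. Members and gene lists were chosen with earlier results of these data known. Kit, Egfl7, Il18, Il18r1, Il18rap, Egr1, Dusp1, Mki67, Rag1, Ikzf3, Notch1, Lmo2 and Cd74 were likewise added later. Pairing by the replicate numbers in titles was checked only between Pax5KO engrafted cells and Ly6D+ CLP. Deviations of same-numbered arrays correlated at -0.055 and 0.041 there, but deviations of 2 CLP arrays mirror each other. Pairing or a shared batch between the engrafted groups was not tested. Pax5KO array 3 correlated at 0.9587 with WT array 3 and at 0.9368 and 0.9421 with WT arrays 1 and 2. Pax5KO arrays 1 and 2 correlated most with WT array 2 (0.9534 and 0.9545). Alternatives covered the arrays in the fit, the variance model, probe set choice, low signals, scaling, a replicate block, a term for high Xist and each replicate left out.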

Additional observations from a re-analysis of the deposited data

Results flagged for a closer look

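Called against Ly6D+ CLP in both engrafted groups but in opposite directions, and called between them, were 12 of the 18193 genes. Both differences from Ly6D+ CLP share the same 2 arrays. The cause was not tested.

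Lower than Ly6D+ CLP in Pax5KO engrafted cells and higher in WT engrafted cells were 7 of them. The Pax5KO minus WT difference in log2 was -9.17 for Cd72, -7.31 for Mgst1, -6.78 for Tmprss3, -6.66 for Siglecg, -6.62 for Klf2, -5.15 for Atp1b1, a subunit of the sodium pump, and -3.53 for Gsn, the actin-severing protein gelsolin. Atp1b1 read 6.63, 6.56 and 7.06 in Pax5KO engrafted cells, 7.92 and 8.05 in Ly6D+ CLP and 11.44 to 12.27 in WT engrafted cells. Tmprss3 and Mgst1 were at the floor in Pax5KO engrafted cells, so their differences are lower bounds.

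Higher than Ly6D+ CLP in Pax5KO engrafted cells and lower in WT engrafted cells were the other 5. Ppp1r3b, which directs a phosphatase to glycogen, differed by 5.75 between the engrafted groups and read 9.03, 8.86 and 8.09, against 7.19 and 6.12 in Ly6D+ CLP and 2.68 to 3.14 in WT engrafted cells. Adcy6, an adenylate cyclase, differed by 4.45, Mgat4b, a glycosyltransferase, by 3.10, Pck2, the mitochondrial PEP carboxykinase, by 3.06 and Rnase10 by at least 2.37, where WT engrafted cells were at the floor. The limma adjusted p of the difference between engrafted groups lay between 6.94e-07 and 0.000205 for the 12 genes. They were chosen by a call in that same comparison, so these values are not separate evidence. Against Ly6D+ CLP, the Pax5KO calls of Mgst1, Ppp1r3b, Adcy6, Mgat4b, Pck2, Gsn and Atp1b1 each ended when some single arrays were left out, with an adjusted p of up to 0.158. With the mean over probe sets, those of Atp1b1 and Pck2 ended as well (difference -1.01 and 0.64, limma adjusted p = 0.165 and 0.201). Leaving out single arrays did not end those of Cd72, Tmprss3, Siglecg, Klf2 and Rnase10.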

How the results depend on the processing

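The main counts were 142 rises and 188 falls. A fit of only the arrays of the 2 groups compared gave 21 rises and 35 falls against Ly6D+ CLP, 367 calls for WT engrafted cells against Ly6D+ CLP (main 1488) and 697 between the engrafted groups (main 1080). With array weights the counts were 57, 117, 812 and 3065, and adding a term for high-Xist arrays gave 299 falls. A replicate block by title number gave 123 rises, 131 falls, 1307 and 1058 calls, and 15 of the 88 called genes named here lost their call under it. Leaving out 1 array at a time gave 88 to 380 rises, 109 to 867 falls, 1046 to 2045 calls for WT engrafted cells and 676 to 1034 between the engrafted groups. Other settings kept the counts within 1.5 times and include quantile normalization (135 rises, 200 falls), equal array medians (114, 213), trended and robust variance (145, 201) and leaving out dim genes (203, 203). No named difference from Ly6D+ CLP that was called changed direction in any setting run. Of those 88 calls, 33 ended with array weights, 6 with the mean of all probe sets, 5 with equal medians and 1 with quantile normalization; the cause was not tested. Between 36.4% and 43.4% of probe sets of an array were within 0.01 of the lowest value, where a change can only be bounded.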

Other observations

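Further genes were described after their values were seen. Il17re, of the interleukin 17 receptor family, read 7.05 and 5.14 in Ly6D+ CLP and was at the floor in Pax5KO and WT engrafted cells, a fall of at least 3.68 (SE 0.44, limma adjusted p = 0.00424). Il1r1, the interleukin 1 receptor, fell by at least 2.49 (limma adjusted p = 0.000916) and Ccl4, a chemokine, by at least 2.43 (limma adjusted p = 0.00292), and both were at the floor in WT engrafted cells as well. Il17rb fell by at least 1.79 (limma adjusted p = 0.0175), a call that ended without any 1 of the Pax5KO arrays (adjusted p up to 0.062).

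Among gains, Acp5, an acid phosphatase, read 7.18, 7.03 and 6.88 against 4.26 and 3.38, and 8.37 to 8.81 in WT engrafted cells. Grb10, an adaptor that restrains growth factor receptors, read 6.48, 5.36 and 6.16 and was at the floor in Ly6D+ CLP. Of its 3 probe sets, 1 was called. WT engrafted cells read 2.61 to 3.24, and the difference between engrafted groups was 3.18 (limma adjusted p = 0.000228). Il33, a cytokine, read 6.21, 7.33 and 6.33 against 2.32 and 3.28, and 3.76 to 5.67 in WT engrafted cells, from which it did not differ by the test (limma adjusted p = 0.165). The call of Il33 against Ly6D+ CLP ended without any 1 of the Pax5KO arrays or Ly6D+ CLP array 1 (adjusted p up to 0.105). Ifitm3, an antiviral membrane protein, and Myc, a growth regulator, read 10.26, 10.10 and 10.04 and 11.05, 10.67 and 9.86. Neither was called against Ly6D+ CLP, where they read 9.63 and 9.10 and 11.21 and 11.22. In WT engrafted cells they read 5.06 to 6.36 and 6.98 to 8.22.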
